A study of Mus musculus with 8 samples.

Results

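The MHC class I antigen presentation genes H2-K1, H2-D1, B2m, Tap1, Tap2, Tapbp, Psmb8, Psmb9, Nlrc5 and Erap1 were followed in PyMt mammary tumors treated topically with calcipotriol, a vitamin D analog, or with EtOH, its solvent. These 10 genes were chosen by name as core parts of the pathway. They are 10 of the 55414 genes listed, and all 10 had enough reads to be tested among the 14458 genes that did. Tumors came from PyMt cells, a line made from a mammary tumor of a C57BL/6 mouse carrying the polyoma middle T oncogene under the MMTV promoter. The cells were implanted in the mammary fat pad of wild-type C57BL/6 female mice, so all tumors derive from 1 line, and each host kept its own immune cells. There were 4 EtOH tumors (replicates 1 to 4) and 4 calcipotriol tumors (replicates 1, 5, 6 and 7), taken 1 day after the last treatment and each sequenced as 1 bulk RNA library. Topical calcipotriol was compared with EtOH to ask how treatment changed gene expression in the tumor.

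MHC class I molecules show peptides from inside a cell to CD8+ T cells. The proteasome, or its interferon-induced form with the subunits Psmb8, Psmb9 and Psmb10, cuts proteins into peptides, the Tap1-Tap2 transporter moves them into the endoplasmic reticulum, and Erap1 trims them there. Tapasin (Tapbp) helps to load them onto a heavy chain such as H2-K1 or H2-D1, which pairs with B2m, and Nlrc5 is a transcriptional coactivator of many of these genes. Interferon gamma raises most of them, and tumors can lose them and so become poorly visible to CD8+ T cells.

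Library totals were 20908411 to 25084713 counts with EtOH and 19685419 to 24673432 with calcipotriol, so that 3 counts, the smallest amount taken as detectable here, were worth 0.119 to 0.146 CPM, the count scaled to a common library size. Levels are given as CPM scaled by TMM library sizes, a scaling that assumes most genes do not change. The labels name the cell type as epithelial, but the tumors also held transcripts of stroma and leukocytes: mean EtOH levels were 593 ± 67.4 CPM for the keratin Krt8, 3350 ± 764 for the fibroblast collagen Col3a1 and 343 ± 29.8 for the macrophage receptor Csf1r (SD, n = 4). In bulk tissue, more cells of a type and more RNA per cell cannot be told apart. Calcipotriol replicate 1 stood apart for the class I genes, and the main values that rest on it are given with and without it. Some values of the other gene lists are given with all tumors only, and may rest on it too.

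Promoter sequence is shown for H2-K1, which rose without calcipotriol replicate 1, and for B2m, whose protein pairs with every heavy chain, as 9 of the 10 class I genes were highest in the same tumor. RefSeq (GRCm38.p6) gave windows for 8 of the 10 genes, and Tap2 and Nlrc5 had none. The sequences below are the 250 bases before the annotated start of H2-K1 (chr17:34000348-34000597, minus strand) and of B2m (chr2:122147437-122147686, plus strand), written 5′ to 3′. Capitals mark the letters GGGGATTCC of the enhancer A kappaB core in H2-K1, the letters GAAANNGAA of the interferon-stimulated response core in B2m, and in both the Y box core CCAAT, here on the opposite strand as ATTGG.
H2-K1: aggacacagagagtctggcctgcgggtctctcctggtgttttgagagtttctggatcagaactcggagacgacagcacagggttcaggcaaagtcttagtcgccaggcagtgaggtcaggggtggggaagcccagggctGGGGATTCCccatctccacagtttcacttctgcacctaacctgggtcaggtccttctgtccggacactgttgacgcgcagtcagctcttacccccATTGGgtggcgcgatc
B2m: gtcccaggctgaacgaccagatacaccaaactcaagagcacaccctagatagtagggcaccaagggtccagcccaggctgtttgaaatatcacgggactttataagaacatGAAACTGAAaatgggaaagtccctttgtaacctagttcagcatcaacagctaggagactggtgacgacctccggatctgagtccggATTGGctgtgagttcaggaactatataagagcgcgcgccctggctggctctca
The enhancer A letters lay 103 to 111 bases before the H2-K1 start used here, or 117 to 125 bases before a second RefSeq start, and the interferon-stimulated letters 131 to 139 bases before the B2m start. The same interferon-stimulated letters were in the Erap1 window, on the opposite strand and 1 to 9 bases before its start. Both strands of each window were searched. The interferon-stimulated core was searched in this spacing only, so its absence in other forms was not tested. The windows of H2-K1 and H2-D1 both hold agtttcacttct after the enhancer A letters, left in lower case here. On the opposite strand this stretch has the GAA and GAAA parts of the core in the other order. GGGGATTCC was in 0.213% of all 32851 promoter windows of this length, GAAANNGAA in 7.13% and CCAAT in 33.8%. H2-D1 carried the enhancer A letters 163 to 171 bases before its start, and the 30 bases around them differed from those of H2-K1 at 1 position.
H2-K1 (chr17:34000439-34000468, minus strand): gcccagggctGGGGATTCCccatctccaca
H2-D1 (chr17:35262913-35262942, plus strand): gcccagggctGGGGATTCCccatctcctca
Psmb8 held the letters TTCNNNGAA of a gamma-activated site 89 to 97 bases before its start, as did 7.02% of windows. The DR3 vitamin D response element was in none of the 8 windows and in 0.0396% of all windows. Psmb9 and Tap1 are read in opposite directions, and their RefSeq starts are 225 bases apart, whereas the longer GENCODE gene models given further on overlap there. These matches describe letters only.

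With all 8 tumors, Nlrc5 rose and no other class I gene passed the test (adjusted p under 0.05, edgeR). Of the 10 genes, 1 rose and 0 fell, where 1.37% of all tested genes rose and 1.37% fell. DESeq2 called 2 of the 10 higher against 3.75% of all genes, limma-voom 1, and neither called any lower. The shares of all genes called by limma-voom, or called lower by DESeq2, are not given here. At an unadjusted p under 0.05, edgeR had 4 of the 10 higher, against 8.56% of all genes, and 0 lower, against 9.84%. Fitted log2 fold changes were above 0 for 9 of the 10, against 52.1% of all genes, and their median was 0.67 against 0.02 over all genes.

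Without calcipotriol replicate 1, Nlrc5 and H2-K1 rose and the median fell to 0.17. These are 2 of the 10 genes, where 2.33% of all genes rose and 4.39% fell in that fit. That tumor was the highest of the 8 for 9 of the 10 genes, against 12.6% of all tested genes, and Erap1 was the exception. The other 3 calcipotriol tumors lay above every EtOH tumor for H2-K1, H2-D1 and Nlrc5, which is 3 of the 10 genes against 10.8% of all genes. The same 3 genes had groups that did not overlap, against 6.32% of all genes that were higher without overlap and 6.16% that were lower.

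**Figure D1:**
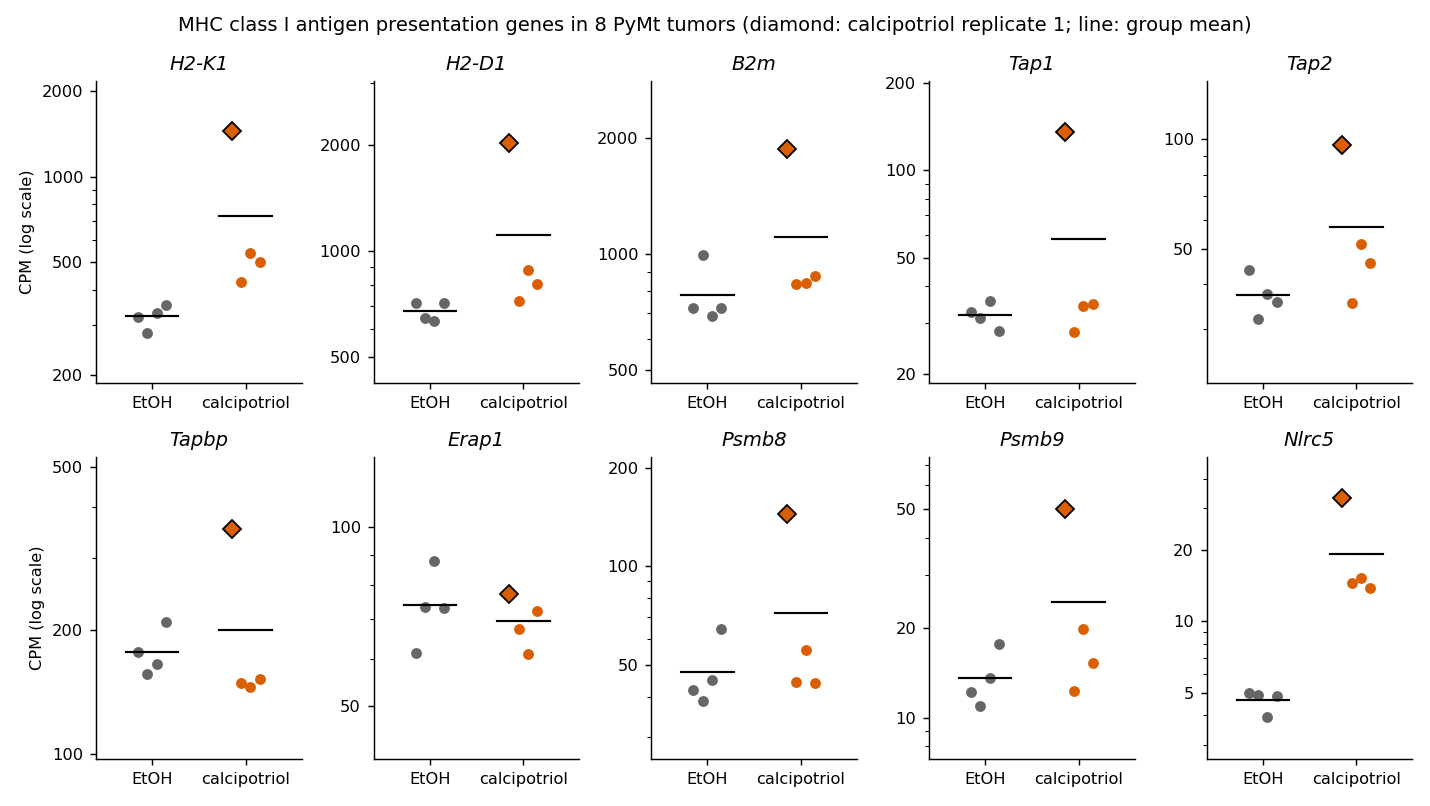
Level of each of the 10 class I genes in each tumor, in CPM on a log scale; points are tumors, the diamond is calcipotriol replicate 1 and the line is the group mean. The diamond is the highest point in every panel but Erap1, and the groups are separate for H2-K1, H2-D1 and Nlrc5.

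Nlrc5, the coactivator that drives class I genes (ENSMUSG00000074151, GRCm38 chromosome 8 from 94434356 to 94527272, plus strand), had 4.96, 4.87, 3.93 and 4.85 CPM in EtOH replicates 1 to 4 and 33.1, 14.5, 15.3 and 13.8 CPM in calcipotriol replicates 1, 5, 6 and 7. The groups were well apart, and the 3 lower calcipotriol tumors were close to each other. Its log2 fold change was 2.04 ± 0.31 (SE, n = 4 per group), or 4.13-fold, with an edgeR adjusted p of 0.0105, and it also passed the fold change threshold of at least 1 (log2) that 1.07% of all genes passed upward. Without calcipotriol replicate 1, it was 1.64 ± 0.21, or 3.13-fold, with an edgeR adjusted p of 0.00207. It passed with each tumor left out in turn, with edgeR adjusted p between 0.00207 and 0.0349. Per kb of exon it had the lowest level of the 10 genes in EtOH tumors, 0.573 ± 0.0597 CPM per kb (SD), and 4 calcipotriol tumors averaged 2.36 CPM per kb.

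The heavy chain H2-K1, which holds the peptide (ENSMUSG00000061232, chromosome 17 from 33996017 to 34000347, minus strand), had 321, 281, 332 and 354 CPM in EtOH tumors and 1450, 427, 537 and 499 CPM in calcipotriol tumors. Every calcipotriol tumor was above every EtOH tumor, and replicate 1 was 2.98 times the mean of the other 3. Its log2 fold change was 1.18 ± 0.35 (SE), or 2.27-fold, with an edgeR adjusted p of 0.105 and a DESeq2 adjusted p of 0.00644. Leaving out replicate 1 gave a smaller value with a smaller error, 0.60 ± 0.14 or 1.52-fold, with an edgeR adjusted p of 0.0334.

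H2-D1, the second classical heavy chain of this strain (ENSMUSG00000073411, chromosome 17 from 35262730 to 35267499, plus strand), had 713, 646, 633 and 715 CPM with EtOH and 2030, 723, 884 and 807 CPM with calcipotriol. The groups did not overlap, but calcipotriol replicate 5 lay just above the highest EtOH tumor. The log2 fold change of 0.71 ± 0.30 (edgeR adjusted p = 0.236) became 0.25 ± 0.13 without replicate 1 (edgeR adjusted p = 0.322). Of the 50-base stretches of the transcripts, 8.79% for H2-K1 and 14.3% for H2-D1 also occur in transcripts of other genes, among them other class I heavy chains, and how reads from these stretches were assigned is uncertain.

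B2m, the light chain common to all class I heavy chains (ENSMUSG00000060802, chromosome 2 from 122147686 to 122153083, plus strand), had 721, 994, 691 and 725 CPM in EtOH tumors and 1880, 836, 840 and 876 CPM in calcipotriol tumors. Its groups overlapped through EtOH replicate 2. The log2 fold change was 0.50 ± 0.27 (edgeR adjusted p = 0.36), and 0.12 ± 0.16 without calcipotriol replicate 1 (edgeR adjusted p = 0.726). Per kb, B2m was the highest of the 10 genes in EtOH tumors, at 910 ± 165 CPM per kb (SD), followed by H2-D1 at 322 ± 20.7 and H2-K1 at 194 ± 18.6.

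The transporter and the peptide loading and trimming genes did not pass in either fit, and outside replicate 1 the calcipotriol tumors were within or near the EtOH range. Tap1 (ENSMUSG00000037321, chromosome 17 from 34187553 to 34197225, plus strand) had 32.7, 31.1, 35.5 and 28.1 CPM with EtOH and 135, 27.9, 34.3 and 34.9 CPM with calcipotriol. Replicate 1 was 4.17 times the mean of the other 3 calcipotriol tumors, the widest such gap of the 10 genes. The log2 fold change of Tap1 was 0.87 ± 0.45 with 8 tumors (edgeR adjusted p = 0.334) and 0.02 ± 0.15 without replicate 1 (edgeR adjusted p = 0.955). Its partner Tap2 (ENSMUSG00000024339, chromosome 17 from 34203527 to 34216321, plus strand) had 43.6, 32, 37.5 and 35.8 CPM with EtOH and 96.5, 35.4, 51.4 and 45.7 CPM with calcipotriol. Its groups overlapped, and the log2 fold change was 0.62 ± 0.27 (edgeR adjusted p = 0.258), or 0.25 ± 0.17 without replicate 1 (edgeR adjusted p = 0.456).

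Tapbp, the tapasin gene (ENSMUSG00000024308, chromosome 17 from 33915899 to 33929292, plus strand), had 177, 157, 166 and 210 CPM in EtOH tumors and 353, 149, 146 and 152 CPM in calcipotriol tumors. Replicate 1 was the highest tumor and the other 3 calcipotriol tumors were the lowest. The sign of its log2 fold change therefore turned, from 0.17 ± 0.28 (edgeR adjusted p = 0.795) to -0.25 ± 0.13 without replicate 1 (edgeR adjusted p = 0.317). Erap1, the trimming peptidase (ENSMUSG00000021583, chromosome 13 from 74639568 to 74693201, plus strand), had 61.5, 73.4, 87.7 and 73.2 CPM with EtOH and 77.3, 67.3, 61.1 and 72.4 CPM with calcipotriol. Replicate 1 did not stand apart for it, and its log2 fold change was -0.09 ± 0.14 (edgeR adjusted p = 0.782).

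Of the immunoproteasome genes, Psmb8 (ENSMUSG00000024338, chromosome 17 from 34197721 to 34201454, plus strand) had 41.8, 38.7, 44.9 and 64.1 CPM in EtOH tumors and 144, 44.2, 55.5 and 44 CPM in calcipotriol tumors. Its log2 fold change was 0.60 ± 0.37 (edgeR adjusted p = 0.418) and 0.01 ± 0.19 without replicate 1 (edgeR adjusted p = 0.977). Psmb9 (ENSMUSG00000096727, chromosome 17 from 34181987 to 34187764, minus strand) had 12.2, 10.9, 13.6 and 17.6 CPM with EtOH and 49.9, 12.3, 19.8 and 15.2 CPM with calcipotriol. Replicate 1 lay far outside the EtOH range of both genes, and the other calcipotriol tumors were within it or close to it. The log2 fold change of Psmb9 was 0.84 ± 0.40 (edgeR adjusted p = 0.293) and 0.22 ± 0.23 without replicate 1 (edgeR adjusted p = 0.651).

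**Figure D2:**
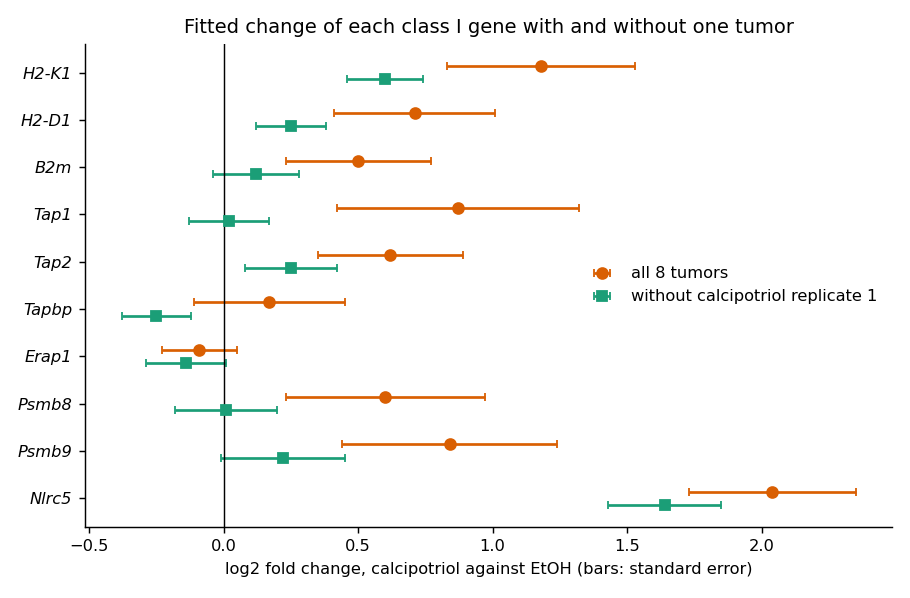
Fitted log2 fold change, calcipotriol against EtOH, of the 10 class I genes, with SE bars, from all 8 tumors (circles) and without calcipotriol replicate 1 (squares). Nlrc5 stays far from 0 in both fits (2.04 and 1.64), whereas Tap1 (0.87 and 0.02) and Psmb8 (0.60 and 0.01) move to about 0.

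Ratios of counts within a tumor do not depend on library scaling, and 6 of them were tested by permuting the treatment labels exactly (70 possible labelings, two-sided, smallest possible p 0.0286). The ratios of H2-K1 to H2-D1 and to B2m were higher in every calcipotriol tumor than in every EtOH tumor, without passing after adjustment. The ratio of H2-K1 to H2-D1 was 0.45, 0.435, 0.524 and 0.496 in EtOH tumors and 0.718, 0.59, 0.608 and 0.619 in calcipotriol tumors, a log2 difference of 0.41 (exact p = 0.0286, adjusted over 6 ratios 0.0857). Without replicate 1 the log2 difference was 0.35, with the groups still apart. The ratio of H2-K1 to B2m was 0.444, 0.282, 0.48 and 0.489 with EtOH and 0.774, 0.511, 0.64 and 0.57 with calcipotriol, a log2 difference of 0.57 with the same exact p of 0.0286 (adjusted 0.0857).

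The other ratios overlapped between the groups. Tap1 to Tap2 differed by 0.01 (exact p = 0.914) and Psmb8 to the constitutive subunit it replaces, Psmb5, by 0.28 (exact p = 0.8, both 0.914 after adjustment). Psmb9 to Psmb6 differed by 0.76 (exact p = 0.0857, adjusted 0.171) and Psmb10 to Psmb7 by 0.34 (exact p = 0.257, adjusted 0.386). Calcipotriol replicate 1 had the highest of all 8 ratios in each of the 6 comparisons, for instance 1.43 for Psmb8 to Psmb5, where the other calcipotriol tumors had 0.326 to 0.52 and EtOH tumors 0.382 to 0.614.

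**Figure D3:**
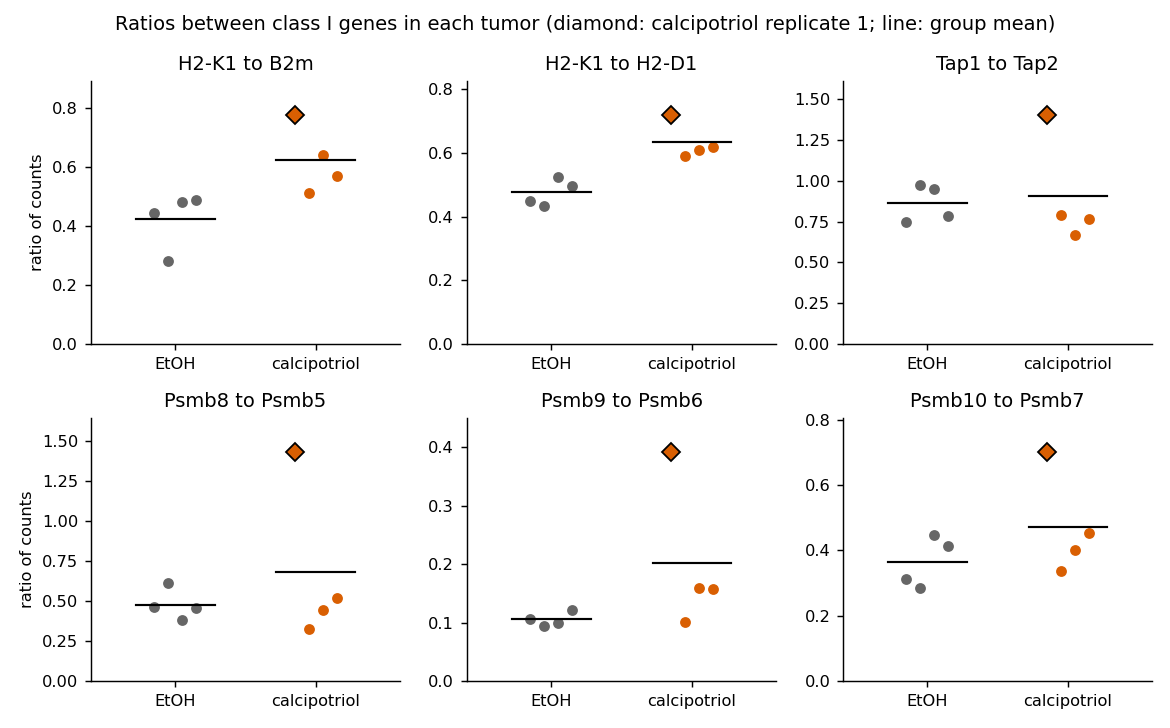
Ratio of counts between paired class I genes in each tumor; points are tumors, the diamond is calcipotriol replicate 1 and the line is the group mean. Groups separate for H2-K1 to B2m and H2-K1 to H2-D1, and overlap in the other 4 panels.

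Beyond these 10 genes, 86 other genes of the pathway were examined by list. Of the 11 tested of 19 other heavy chain genes, 10 had log2 fold changes above 0 (52.1% of all tested genes did), with a median of 1.02, and none passed in edgeR with all tumors. Without calcipotriol replicate 1, 9 of the 11 were above 0, with a median of 0.63. In that fit 2 of the 11 rose, where 2.33% of all genes did. At an unadjusted p under 0.05 there were 6 higher and 0 lower, against 8.56% and 9.84% of all genes, and DESeq2 called 3 of the 11 higher, against 3.75%. H2-T23, which encodes Qa-1, the ligand of NK cell NKG2A receptors, had 82.6, 70.2, 77.6 and 88.5 CPM with EtOH and 278, 103, 142 and 125 CPM with calcipotriol, without overlap. Its log2 fold change was 1.02 ± 0.27 (edgeR adjusted p = 0.0776), and 0.63 without replicate 1 (edgeR adjusted p = 0.0321). Of the 50-base stretches of H2-T23, 28.8% also occur in transcripts of other genes, so how its reads were assigned is uncertain. H2-Q7, a Qa-2 gene, had 4.18, 2.24, 3.48 and 2.91 CPM with EtOH and 40.6, 5.02, 10.7 and 11.5 CPM with calcipotriol, also without overlap. It had a log2 fold change of 2.40 ± 0.57 (edgeR adjusted p = 0.0531), and 1.5 without replicate 1 (edgeR adjusted p = 0.0372), but 34.9% of its 50-base stretches occur in other genes, chiefly H2-Q6, and the split of reads between the 2 is uncertain.

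Other heavy chain genes gave smaller or more variable differences. Log2 fold changes were 1.18 for H2-Q4 (edgeR adjusted p = 0.177), 1.89 for H2-Q6 (0.212), 1.38 for H2-T10 (0.131), 1.09 for H2-T24 (0.357), 0.76 for H2-Q10 (0.728) and 0.51 for H2-T22 (0.347). Without calcipotriol replicate 1 they were 0.43, 0.83, 1.22, 0.72, 0.97 and 0.10 in the same order. The lipid-presenting Cd1d1 had 0.64 (edgeR adjusted p = 0.221) with groups that did not overlap, while H2-M3, which presents formylated peptides, had -0.01 (0.986) and Mr1, which presents vitamin B metabolites, 0.06 (0.936). Shared 50-base stretches made up 24.3% of H2-Q4, 32.0% of H2-Q6, 42.9% of H2-T10, 44.7% of H2-T22 and 25.8% of Cd1d1. They made up at most 8.03% of H2-Q10, H2-T24, H2-M3 and Mr1. Summed over 13 heavy chain genes, which removes the split of reads among them, the tumors had 1260, 1110, 1160 and 1300 CPM with EtOH and 4270, 1390, 1740 and 1610 CPM with calcipotriol. No EtOH tumor reached the lowest calcipotriol tumor, but the log2 fold change of the sum, 0.90 ± 0.32, did not pass (edgeR adjusted p = 0.17). The sum was not fitted without replicate 1. H2-M9, named after its values were seen, had 0 counts in all EtOH tumors and 0, 9, 12 and 8 counts in calcipotriol replicates 1, 5, 6 and 7, a pattern in which replicate 1 had none.

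The proteasome genes outside the immunoproteasome did not move as a group. None of the 14 constitutive 20S core genes passed, 0 had an unadjusted p under 0.05, and their median log2 fold change was 0.01. The other immunoproteasome genes had log2 fold changes of 0.33 for the catalytic subunit Psmb10 (edgeR adjusted p = 0.504), and -0.21, 0.13 and 0.01 for the activator genes Psme1 (0.495), Psme2 (0.819) and Psme2b (0.995), with 0 of 4 at an unadjusted p under 0.05. Without calcipotriol replicate 1 they were 0.12, -0.32, 0.04 and -0.26 in the same order. DESeq2 and limma-voom called 0 genes in either list. Among the 8 chaperones of loading, 7 were below 0 and 1 above, against 52.1% of all tested genes above 0. Their median was -0.26. None passed with all tumors, DESeq2 called 1 lower and limma-voom 0. At an unadjusted p under 0.05, 4 were lower and 1 higher, against 9.84% and 8.56% of all genes. Calr, the chaperone calreticulin, had 547, 584, 609 and 626 CPM with EtOH and 536, 402, 371 and 362 CPM with calcipotriol (log2 fold change -0.50 ± 0.15, edgeR adjusted p = 0.109), and fell without replicate 1 (-0.64, edgeR adjusted p = 0.0162). None of the 8 peptidase genes passed in edgeR, DESeq2 or limma-voom. At an unadjusted p under 0.05, 1 was lower, against 9.84% of all genes. The smallest edgeR adjusted p was 0.15, for Nrd1 (log2 fold change -0.32).

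Of 16 transcription factor and signaling genes upstream of class I, 1 fell and 0 rose, where 1.37% of all tested genes fell and 1.37% rose. Irf8, an interferon regulatory factor of macrophages and dendritic cells, had 89.1, 76.1, 74.1 and 76.7 CPM with EtOH and 61.8, 40.6, 39.8 and 38.3 CPM with calcipotriol. All calcipotriol tumors were below all EtOH tumors (log2 fold change -0.81 ± 0.17, edgeR adjusted p = 0.0333). It lost the call in 7 of the 8 fits with 1 tumor left out, with edgeR adjusted p of 0.0605 to 0.114, and kept it without calcipotriol replicate 1 (-1.0, 0.0021), where Irf2, named after its values were seen, was also lower (-0.88, 0.0175). Irf1 had a log2 fold change of 0.75 (edgeR adjusted p = 0.171), the MHC class II coactivator Ciita 0.04 (0.982) and Rfx5, which binds class I and class II promoters, 0.53 (0.314). Without calcipotriol replicate 1 they were 0.39, -1.08 and 0.65 in the same order.

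No gene of the interferon gamma axis passed in edgeR with all tumors. Ifng itself had 0 counts in every EtOH tumor and 34, 3, 7 and 9 counts in calcipotriol replicates 1, 5, 6 and 7, too few for the test. Of the 6 tested genes of 7, 1 was higher and 2 were lower at an unadjusted p under 0.05. The shares of all genes were 8.56% and 9.84%. DESeq2 called 1 higher, against 3.75% of all genes, and 1 lower, and limma-voom called 0. The receptor gene Ifngr1 had 73, 68.3, 67.4 and 76.2 CPM with EtOH and 61.5, 41.5, 43.3 and 46 CPM with calcipotriol (log2 fold change -0.57, edgeR adjusted p = 0.0668). Without replicate 1 it fell (-0.71, edgeR adjusted p = 0.00911) and the kinase gene Jak2, named after its values were seen, rose (0.72, 0.0237).

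All 10 interferon-inducible GTPase and chemokine genes had log2 fold changes above 0, against 52.1% of all tested genes. Their median was 1.18, and calcipotriol replicate 1 was the highest tumor for all 10, against 12.6% of all tested genes. Without it 8 were above 0, with a median of 0.70, and Gbp7 (-0.11) and Cxcl10 (-0.21) were below. Of the 10, 1 rose with all tumors, against 1.37% of all tested genes. This was Iigp1, a GTPase that acts on parasite vacuoles. It had 8.61, 12.8, 16.6 and 16.9 CPM with EtOH and 217, 47.5, 50.1 and 54.6 CPM with calcipotriol (log2 fold change 2.75 ± 0.51, edgeR adjusted p = 0.0226). Without replicate 1 it rose by 1.88 (edgeR adjusted p = 0.00178), and the call was lost when EtOH replicate 1, 2 or 3 was left out (0.0677, 0.0696 and 0.0548). The GTPase gene Gbp2, named after its values were seen, had 24.4, 30, 46.7 and 46.9 CPM with EtOH and 316, 86, 62.7 and 81.9 CPM with calcipotriol, without overlap (1.88, edgeR adjusted p = 0.0704), and rose without replicate 1 (1.05, 0.0295).

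**Figure D4:**
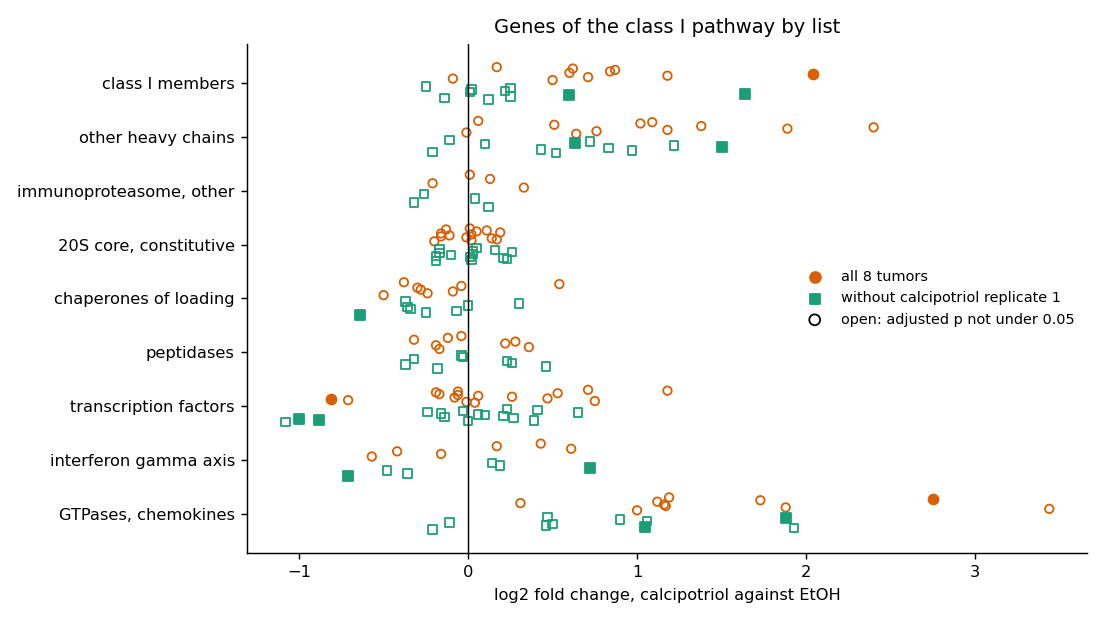
Log2 fold change, calcipotriol against EtOH, of every tested gene by pathway list, from all 8 tumors (circles) and without calcipotriol replicate 1 (squares); filled symbols have an edgeR adjusted p under 0.05. With all 8 tumors, heavy chains and interferon-inducible GTPases and chemokines lie mostly to the right of 0 (medians 1.02 and 1.18). The 20S core lies around 0 (median 0.01). Without calcipotriol replicate 1 the first 2 medians are 0.63 and 0.70.

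Summed T cell and NK markers were, like the summed class I genes, highest in calcipotriol replicate 1. The summed level of the 10 class I genes was 2040 to 2270 CPM in EtOH tumors, 6250 in calcipotriol replicate 1 and 2340 to 2640 in the other calcipotriol tumors. The 8 T cell markers summed to 0.441 to 2.82 CPM, 13.8 CPM and 3.26 to 5.71 CPM in the same order, and the 8 NK and cytotoxic cell markers to 1.8 to 3.22, 22.3 and 5.98 to 6.94 CPM, with Ncr1 at 0 in every EtOH tumor. Both lists were low in all tumors, and replicate 1 was the highest of the 8. None of the 4 tested T cell and 3 tested NK genes passed in edgeR. At an unadjusted p under 0.05, 1 and 2 were higher, against 8.56% of all genes. The most abundant T cell gene was Cd2, an adhesion receptor (log2 fold change 1.14, edgeR adjusted p = 0.508). The most abundant NK gene was Gzmb, the protease granzyme B (2.71, edgeR adjusted p = 0.0675). Their part in the class I values was not tested.

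Most macrophage and all 4 pan-leukocyte transcripts went the other way between the groups. The 8 macrophage markers summed to 787 to 995 CPM with EtOH, 659 in calcipotriol replicate 1 and 309 to 366 in the other calcipotriol tumors. Of the 8, 7 had log2 fold changes below 0 and 1 above, against 52.1% of all tested genes above 0. In the test 2 fell, where 1.37% of all tested genes fell. The 2 were Csf1r (log2 fold change -1.64, edgeR adjusted p = 0.0374) and Adgre1, which encodes F4/80 (-1.24, 0.0325). The exception was Ly6c2, with 1.77 (edgeR adjusted p = 0.17), or 1.95 without replicate 1 (0.118). The 4 pan-leukocyte markers summed to 376 to 531, 406 and 131 to 172 CPM, and none of the 4 passed with all tumors. At an unadjusted p under 0.05, 3 were lower, against 9.84% of all genes. Laptm5, the most abundant, had -1.17 (edgeR adjusted p = 0.058). Without replicate 1, 5 of the 8 macrophage and all 4 pan-leukocyte markers fell, where 4.39% of all genes fell. With all tumors, DESeq2 called 5 and 2 of them lower. In both sums replicate 1 lay above the other calcipotriol tumors. Dendritic cell markers summed to 11.2 to 19.3, 27.4 and 7.26 to 11.1 CPM. Of the 5 tested, 2 had log2 fold changes above 0, against 52.1% of all tested genes. Itgax, the most abundant, had -0.45 (edgeR adjusted p = 0.813), and -2.21 without replicate 1 (0.0179). Zbtb46, named after its values were seen, had 1.13 (edgeR adjusted p = 0.148), with groups that did not overlap. B cell markers summed to 1.13 to 2.69, 0.318 and 0.297 to 0.457 CPM, with 0 of 4 tested.

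Among the other tissue lists, epithelial markers summed to 1010 to 1320 CPM with EtOH. They summed to 899 CPM in calcipotriol replicate 1 and 601 to 691 in the rest. These sums were mostly Krt8 and Krt18 (means of 593 and 558 CPM in EtOH tumors). Of the 8 markers, 6 had log2 fold changes above 0, against 52.1% of all tested genes, and 2 below, with a median of 0.61. The keratin Krt18 fell (-0.93, edgeR adjusted p = 0.0162), Krt8 had -0.69 (0.0966), and the tight junction gene Cldn3, low in EtOH tumors at 0.176 to 0.778 CPM, rose (3.93, 0.00654). Endothelial markers summed to 126 to 292, 103 and 50.3 to 75.2 CPM; Pecam1 (-1.36, edgeR adjusted p = 0.0331), Kdr (-1.75, 0.00384) and Tie1 (-1.65, 0.0424) fell, and Cdh5, the most abundant, had -1.46 (0.126). Erythroid markers summed to 3460 to 5840, 820 and 434 to 609 CPM, and 5 of the 6, Hba-a1, Hba-a2, Hbb-bs, Hbb-bt and Alas2, fell by 2.74 to 3.03 on the log2 scale. Fibroblast markers summed to 5090 to 6050, 4100 and 3850 to 6760 CPM. Muscle markers summed to 0.925 to 36.2, 1.07 and 0.868 to 5.77 CPM, and both sums overlapped between the groups. Of the 7 fibroblast markers, 5 had log2 fold changes above 0, against 52.1% of all tested genes, with a median of 0.06. Col3a1, the most abundant of them, had -0.52 (edgeR adjusted p = 0.236), and the muscle gene Acta1 had -3.21 (0.201). Of the 73 marker genes listed, not all of which were tested, 1 rose and 11 fell. Of all tested genes, 1.37% rose and 1.37% fell. Calls of several markers were lost with 1 tumor left out: Csf1r (edgeR adjusted p of 0.0605 to 0.113) and Adgre1 (0.058 to 0.106) without any tumor but calcipotriol replicate 1, Pecam1 (0.0721 to 0.103) and Tie1 (0.0932 to 0.12) without EtOH replicate 1 or 2 or calcipotriol replicate 5, 6 or 7, and Krt18 (0.0606 and 0.056) without calcipotriol replicate 6 or 7. The part of these shifts in the class I values was not tested.

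**Figure D5:**
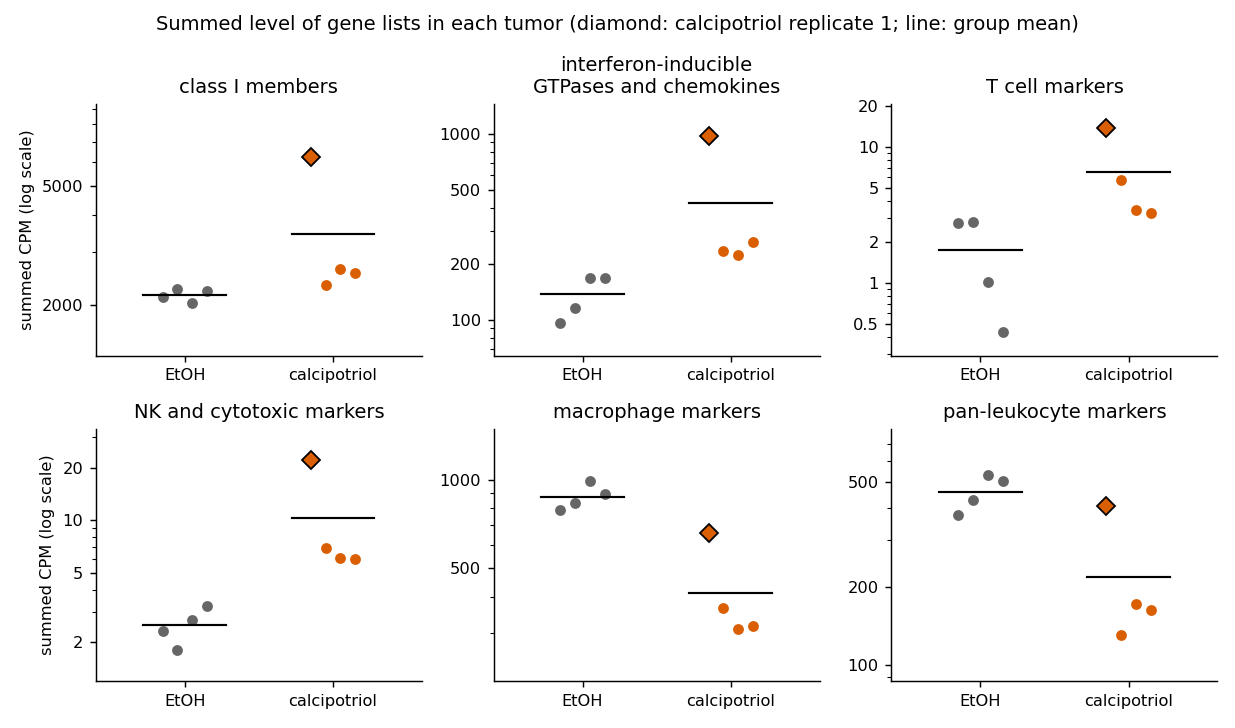
Summed CPM of 6 gene lists in each tumor, on log scales; points are tumors, the diamond is calcipotriol replicate 1 and the line is the group mean. The diamond is the highest of the 8 tumors for class I genes (6250 CPM), interferon-inducible genes (967 CPM), T cell markers (13.8 CPM) and NK markers (22.3 CPM), but lies below the EtOH tumors for macrophage markers (659 CPM).

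The genes whose level varied most like the class I genes were found by correlating, over the 8 tumors, their log2 deviations from the group means with the mean deviation of the 10 class I genes; all points share libraries and depth. Unc93b1, which carries nucleic acid sensing Toll-like receptors to endosomes, had the highest Pearson r of 0.996, followed by Pld4 (0.992), Il10ra, an interleukin-10 receptor chain (0.991), Tada3 (0.989), Vav1 (0.989), Otulinl (0.988), Gm7361 (0.986), Plbd1 (0.986), Ecm1 (0.985) and Vsir (0.982). These values rest largely on calcipotriol replicate 1: without it they ranged from 0.538 for Plbd1 to 0.923 for Tada3. Unlike most class I genes, Unc93b1 was lower in all calcipotriol tumors, at 116, 114, 120 and 122 CPM with EtOH and 95.1, 35.1, 42.3 and 41.4 CPM with calcipotriol (log2 fold change -1.14, edgeR adjusted p = 0.0595), so the likeness is within the groups only. The class I genes themselves also differed in this respect. Each was correlated with the mean deviation of the other class I genes. H2-K1 (0.93), Psmb9 (0.93) and H2-D1 (0.82) kept a high r without replicate 1. Nlrc5 went from 0.94 to 0.03, Tap1 from 0.96 to 0.10 and B2m from 0.85 to -0.51. These correlations describe 8 tumors, or fewer where replicate 1 was left out, with no test.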

How the data were processed

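Bulk RNA of 4 EtOH-treated and 4 calcipotriol-treated PyMt tumors was sequenced. The authors deposited estimated counts per gene (expected counts with decimals), without scaling between tumors. Per the submitters' processing notes, STAR 2.5.3, RSEM 1.3.1, DESeq2 1.24.0 and GRCm38 were used; the annotation release and the strand setting are not given in the sources used here, so antisense or overlapping genes may share reads. The labels and the study's methods name different Illumina sequencers. Whole counts had been planned for; between 4.2% and 6.22% of a tumor's values were not whole, and all were rounded. Library totals were 19685419 to 25084713. The table has 0 columns of other samples. Symbols and positions came from GENCODE M21, which matched 52081 of 55414 identifiers; the other 3333 stayed in the tests without a name.

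Treatments were tested with edgeR 4.0.16 under R 4.3.3, using TMM scaling, the filterByExpr filter and the quasi-likelihood functions glmQLFit and glmQLFTest, fitted over all 14458 genes that passed the filter, with Benjamini-Hochberg adjustment over all of them; a gene passed at an adjusted p under 0.05. The standard error is the absolute log2 fold change divided by the square root of F. Alternatives were DESeq2 size factors, no filter, at least 10 counts in every tumor, DESeq2 1.42.0, limma-voom (limma 3.58.1), a log2 fold change minimum of 1, summed heavy chains and each tumor left out in turn; ratios were recomputed with 0.5 added to each count. The fits were tested on simulated data with 200 changed genes. There edgeR recovered 196 with 5 false calls, DESeq2 195 with 32 and limma-voom 195 with 7. The detection floor of 3 counts covers counting error only, since PCR reads are not independent molecules. Replicate tumors differed by more than counting error (20.2 to 132.6 times over all pairs), and none was merged. The methods describe the 4 samples per group as biological replicates.

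Named genes were the 10 class I genes, the tested heavy chain and immunoproteasome genes, the passing and lowest-p genes of the other pathway lists, Irf1, Ciita, Rfx5 and Ifng, the 10 genes most like the class I mean, and the passing and most abundant marker genes; Gbp2, Jak2, Irf2 and H2-M9 were added after their values were seen. A further gene of this rule is not reported here. The members and lists were chosen with earlier results of these data known. Transcripts of near-identical genes were compared by 50-base stretches. Promoters came from RefSeq (GRCm38.p6).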

Additional observations from a re-analysis of the deposited data

Results flagged for a closer look

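In 32 groups of 4 values (each class I gene and each ratio in each treatment), 6 had a tumor whose distance from the nearest other exceeded Dixon's 95% limit, where chance gives about 1 in 20, or 1.6 here. Calcipotriol replicate 1 accounted for 4 of the 6. Its B2m level was 1880 CPM against 836 to 876 in the other calcipotriol tumors, Tap1 was 135 CPM against 27.9 to 34.9, Tapbp was 353 CPM against 146 to 152, and Nlrc5 was 33.1 CPM against 13.8 to 15.3. The other 2 were in EtOH tumors: B2m was 994 CPM in replicate 2 against 691 to 725 in the rest, and Nlrc5 was 3.93 CPM in replicate 3 against 4.85 to 4.96.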

How the results depend on the processing

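The call of Nlrc5 held under every alternative run. No paired analysis was run, since neither the labels nor the methods name pairs of tumors. Of class I genes, 1 rose with all tumors, 2 with no filter on low counts and 2 with DESeq2, and 1 to 2 with each tumor left out (2 without calcipotriol replicate 1). H2-K1 was the second gene each time (no filter: log2 fold change 1.19, edgeR adjusted p = 0.0367). Of other pathway genes, 1 rose with all tumors, 6 with no filter, 2 with at least 10 counts in every tumor, 8 with DESeq2, and 0 to 5 with a tumor left out (5 without calcipotriol replicate 1); 1 fell with all tumors, 4 with DESeq2, 0 with the fold change minimum, and 0 to 4 with a tumor left out (4 without calcipotriol replicate 1). Of marker genes, 1 rose with all tumors, 2 with no filter, 0 with at least 10 counts, 3 with DESeq2, and 1 to 2 with a tumor left out; 11 fell, 19 with DESeq2, and 6 to 21 with a tumor left out (21 without calcipotriol replicate 1, 6 without calcipotriol replicate 6 or 7, 7 without EtOH replicate 1 or 2 or calcipotriol replicate 5). Among ratios, Psmb8 to Psmb5 ranged from -0.16 (without calcipotriol replicate 1) to 0.56 and Tap1 to Tap2 from -0.22 (without the same tumor) to 0.14; with 3 against 4 tumors the smallest exact p is 0.0571. Genes near 0 turned sign or reached 0 when a tumor was left out: Tapbp from -0.25 to 0.30, Erap1 from -0.17 to 0.00, Ciita from -1.08 to 0.44, H2-M3 from -0.21 to 0.11, Mr1 from -0.11 to 0.30, Psmb5 from -0.07 to 0.30, Psmb7 from -0.10 to 0.11, Psme2 from -0.03 to 0.35 and Psme2b from -0.26 to 0.32. Ciita was -0.26 with limma-voom. DESeq2 size factors changed no call. H2-Q7 passed with no filter (edgeR adjusted p = 0.00922), with at least 10 counts (0.0428), with DESeq2 (0.000301) and without calcipotriol replicate 1 or 5 (0.0372 in each fit). The cause of these changes was not tested. Depth limits genes of a few counts per tumor, such as Ifng and H2-M9.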
